A study of Mus musculus with 86 samples.

Results

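The Lrrc47 reporter oligos are a dense tile of the 3′ untranslated region (3′ UTR) of the mouse gene Lrrc47, built to find which stretch of that RNA responds to TDP-43. They were taken by name as every oligo carrying the symbol Lrrc47, which gave 437 of the 11955 oligos in the reporter pool. Of these, 174 are motif-mutated companions of oligos that contain at least 1 TDP-43 motif, and the others hold the genomic sequence and are called intact here. Each oligo is 260 nt long and starts 6 nt after the one before it, so neighbours share nearly all of their sequence and are not independent observations. Numbers run from 1 at the 5′ end.

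TDP-43, encoded by Tardbp, is an RNA-binding protein that recognizes GU-rich sequence and works in splicing, RNA stability and RNA transport. It is depleted from the nucleus of affected neurons in most cases of amyotrophic lateral sclerosis. Lrrc47 encodes a protein with leucine-rich repeats, and its own RNA was measured in the same cells, so the reporters can be set beside the gene they were copied from.

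CAD and N2A cells are mouse neuronal cell lines that grow neurites, and both were used as clones in which the endogenous Tardbp alleles had been inactivated and an HA-tagged TDP-43 transgene is switched off by doxycycline. KO stands for such cells given doxycycline (2 µg per mL for 48 h per the labels) and WT for the same cells without it, so the WT cells also live on the transgene alone and both arms carry the same edits. Since only the KO arm received doxycycline, KO against WT compares drug and TDP-43 loss together, and an effect of the drug itself was not tested. The methods of the study give a lower concentration for the fractionated cells and, for the reporters, an addition a day before plating, so the exact exposure is uncertain. The reporter pool was transfected into CAD cells and counted by unique molecular identifiers (UMIs) in soma and neurite fractions from KO and WT cells, with 4 libraries per group (the massively parallel reporter assay, MPRA). Purified TDP-43 was mixed with the RNA pool at 0, 5, 50 and 500 nM in RNA Bind-n-Seq (RBNS), with 2 libraries at each concentration above 0 and 1 each for 0 nM and the input. For SLAM-seq, 4-thiouridine marked new RNA, which is read as T-to-C changes, and CAD cells were taken at 0 and 12 h of chase (WT 2 and 3 libraries, KO 3 and 3). A further 3 libraries had no 4-thiouridine, and no doxycycline is listed for them. Endogenous RNA was counted in soma and neurites of KO and WT cells (3 libraries per group, in CAD and in N2A cells) and of CAD cells with an inducible Q331K or WT TDP-43 transgene (3 per group), which lowers the cells' own TDP-43 through autoregulation and supplies most of the protein. Per the study's methods, doxycycline induced the Q331K and the WT transgene alike before fractionation, though the labels list none for these cells. Libraries held 7923270 to 12208997 UMIs in the MPRA, 1806779 to 9646262 reads in RBNS, 10782983 to 33024830 reads in SLAM-seq and 9771746 to 32864441 estimated counts in RNA-seq. The labels do not say whether the replicates of a group came from separate cultures, so p-values measure only the spread between these libraries. Counting intervals would cover counting error only. Tardbp fell in KO cells by 2.52 on the log2 scale in CAD soma and by 1.78 in N2A soma, and its reads include those of the transgene. All 5 neuronal markers were at 1 TPM or more in every group, whereas of 4 catecholaminergic markers Ddc and Slc18a2 stayed under 1 TPM in all CAD groups. Th was under 1 TPM in CAD KO neurites as well, and all 4 were in N2A neurites of KO and WT cells. Of 11 markers of other cell types, 5 reached 1 TPM in N2A WT soma, the most of any group.

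The tile covers chr4:154019777-154021608 on the + strand (mm10, GRCm38), 1832 nt in exon 7 of the isoforms Lrrc47-201 and Lrrc47-205. It opens with 97 coding bases before the stop codon at chr4:154019874-154019876, and it runs 95 nt past the annotated end of the gene at 154021513. Motifs were counted with overlaps on the strand of the transcript, written as DNA, namely TGTGT plus GTGTG plus GTATG. The tile holds 51 of them, of which 12 are TGTGT and 35 are GTGTG and 4 are GTATG, and 49 lie in one GU-rich block of 494 nt (chr4:154019890-154020383) that starts a few bases after the stop codon. The windows below show the repeat that makes up this block and, for contrast, the only motifs outside it, with motif bases in capitals.
Stop codon and first repeats, chr4:154019872-154019901: gctgacaggctcctgtagGTGTGgGTGTGc
From oligo 1, chr4:154019888-154019917: agGTGTGgGTGTGctgtaggtgtcTGTGTG
From oligo 45, chr4:154020204-154020233: ggGTGTGctgtaggtgtcTGTGTGgGTGTG
From oligo 89, chr4:154020321-154020350: agGTGTGgGTGTGctgtaggggtcTGTGTG
From the later TGTGT site, chr4:154020934-154020963: tgactgcgcacatcccatctccgcaTGTGT
From the later GTGTG site, chr4:154021401-154021430: ttccctccagcccagcccagcccagGTGTG
The windows from oligos 1, 45 and 89 are near-copies of one another, and an oligo of the first 88 shared up to 43 nt exactly with another place in the tile.

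Oligos 1 to 44 held 17 to 26 motifs each (median 23) and oligos 45 to 88 held 8 to 24 (median 21). The next 44 held at most 7, and all oligos after them held 0 or 1. In all, 89 intact oligos had no motif. In every one of the 174 companions the altered positions were all of the motif bases and no others, so the companion of oligo 19 differs from it at 114 positions and that of an oligo with a single motif at 5. Results are given below for 6 successive stretches of 44 oligos (43 in the last), of which the first is oligos 1–44, the second 45–88 and the third starts at oligo 89. The oligos that open these stretches do not overlap each other and are named throughout.

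The reporters of the GU-rich block were higher in KO than in WT cells in both compartments, and more so in neurites than in soma. Localization was measured as the log2 ratio of neurites to soma (the localization ratio, LR), and subtracting the WT value from the KO value gave the LR change. The LR rose for 81 intact oligos, 30.8% of them, and these were oligos 1 to 81 without a gap. None fell, and none of the 174 mutated oligos changed (edgeR quasi-likelihood test, FDR 0.01). Of the 11918 oligos tested across the pool 5.15% rose and 0.277% fell, and of its intact oligos 7.06% rose. All 437 oligos passed the filter on low counts. At an unadjusted p under 0.05, 7 mutated oligos were listed, between −0.18 and 0.25. Here and below, no share over all oligos or pairs is given at this unadjusted cut-off, so such counts are not set against the pool.

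Oligo 60 (chr4:154020131-154020390, 24 motifs) had the highest LR change. Its neurite level in WT cells was 44.9, 41.9, 48.9 and 40.5 CPM (UMIs scaled to the TMM library size), and in KO cells it was 1267, 1190, 1540 and 1647 CPM. Its soma level was 58.5, 56.5, 44.5 and 46.6 CPM in WT and 182, 185, 187 and 180 CPM in KO cells. The KO libraries lay above every WT library in both compartments, by 32.0-fold in neurites and 3.56-fold in soma, so the oligo went from an LR of −0.23 to 2.94, a change of 3.16 (SE 0.14, edgeR FDR 1.56e-15). The counts behind these levels were 381 to 707 UMIs in WT and 1931 to 10971 in KO libraries. Its mutated companion stayed at 39.8 ± 3.28 CPM (SD, n = 4) in WT neurites, 46.6 ± 4.88 in KO neurites, 40.8 ± 2.46 in WT soma and 44 ± 1.89 in KO soma. The intact and the mutated oligo 60 differed in LR change by 3.03 (SE 0.17, limma FDR 4.80e-12).

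Oligo 59, 1 step upstream, had the largest rise in neurites of all Lrrc47 oligos. Its neurite level went from 75.8, 76.8, 82.2 and 72.5 CPM in WT to 3257, 3059, 3348 and 3687 CPM in KO cells, a 43.5-fold difference (log2 5.44, SE 0.09, edgeR FDR 3.07e-24). This fold is not corrected for UMIs shared by chance, which can lower the count of an oligo at such a KO level. In soma it went from 82.9, 78.4, 65.7 and 67.4 CPM to 381, 396, 391 and 374 CPM. The groups did not overlap in either compartment, and the mutated oligo 59 had 86.4 ± 8.14 CPM in WT and 87.1 ± 7.96 CPM in KO neurites (SD, n = 4).

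Oligo 19 (chr4:154019885-154020144) had the largest rise in soma and, with 26 motifs, the highest motif count. Its soma level was 53.2, 47.4, 39.9 and 42.0 CPM in WT and 336, 329, 304 and 310 CPM in KO cells, 7.01-fold higher (log2 2.81, SE 0.09, edgeR FDR 1.75e-17). Its neurite level was 33.4, 40.0, 42.9 and 42.2 CPM in WT and 1121, 1074, 1181 and 1357 CPM in KO cells. KO and WT libraries did not overlap, and the mutated oligo 19 had 47.7 ± 3.36 CPM in WT and 49.5 ± 2.15 CPM in KO soma (SD, n = 4).

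The size of the LR change was not even within the block. It was 0.41 at oligo 1 (SE 0.08), climbed to 2.74 at oligo 15, fell back to 1.16 at oligo 44, climbed again to 3.16 at oligo 60, and then declined to 1.26 at oligo 75, 0.47 at oligo 80 and 0.33 at oligo 81 (edgeR FDR 0.00344). Oligos 15, 44 and 60 carried 25, 23 and 24 motifs. Oligo 82, with 11 motifs, had an LR change of 0.20 (SE 0.06), which missed the threshold (edgeR FDR 0.0436). Across the 88 oligos of the first 2 stretches, motif number and LR change had a Spearman correlation of 0.61 and motif number and the soma change one of 0.78. These are descriptions over oligos that overlap each other and were counted in the same libraries.

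Calls of a higher level reached further 3′ than calls of a higher LR. In soma 93 intact oligos (35.4%) rose in KO cells and none fell, where 7.55% of all oligos and 10.4% of intact oligos of the pool rose and 0.101% of all fell. They were oligos 1 to 89, 91 to 93 and, apart from the rest, oligo 127. In neurites 93 rose and none fell, oligos 1 to 93 without a gap, where 8.06% of all oligos and 10.9% of intact ones rose and 0.696% of all fell. All 81 oligos with a higher LR were among those higher in soma, and they made up 87.1% of them. Of the 8 oligos with 8 to 12 motifs, all 8 rose in soma, with a median log2 change of 0.71, and 1 rose in LR. The LR changes of these 8 were all positive, between 0.11 and 0.33 with a median of 0.19. The 5 oligos with 13 to 16 motifs rose in soma (median 1.59) and in LR (median 0.82) alike, and the 60 oligos with 21 to 26 motifs had medians of 2.29 in soma, 4.37 in neurites and 1.98 in LR change.

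The oligos that open the stretches show the fall along the UTR. Intact oligo 1 had 138 ± 14.8 CPM in WT soma and 305 ± 12.8 in KO soma, and 129 ± 5.12 CPM in WT and 381 ± 9.75 in KO neurites (SD, n = 4). Intact oligo 45 rose 4.65-fold in soma and 14.1-fold in neurites (LR change 1.60, SE 0.12). Intact oligo 89, which keeps 7 motifs, had 240, 249, 235 and 228 CPM in WT soma and 275, 281, 265 and 282 CPM in KO soma, a 1.16-fold difference whose groups did not overlap (log2 0.21, SE 0.05, edgeR FDR 0.00262), and its LR change of 0.12 did not pass the test. The oligos that open the fourth, the fifth and the sixth stretches and the last oligo had KO levels of 0.885-fold to 1.06-fold the WT level in either compartment, and none passed the test. For the one that opens the fifth (chr4:154020833-154021092), which carries the later TGTGT, the soma level was 51.7, 52.3, 52.7 and 53.7 CPM in WT and 52.8, 50.3, 46.5 and 51.6 CPM in KO cells, and the groups overlapped. For the last oligo (chr4:154021349-154021608), which carries the later GTGTG, it was 29.6, 31.1, 24.1 and 29.3 CPM in WT and 31.3, 28.6, 24.8 and 30.3 CPM in KO cells, again with overlap.

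Per stretch, from the first to the sixth, the median fold of KO over WT in soma was 4.93, 4.53, 1.07, 0.932, 0.982 and 1.01. In neurites it was 15.9, 16.3, 1.07, 0.941, 0.960 and 0.966. The mutated companions of oligos 1–44 had medians of 1.06 in soma and 1.09 in neurites. All 4 KO libraries lay above all 4 WT libraries for 99 intact oligos in soma (37.6%) and 96 in neurites (36.5%), and below them for 10 (3.80%) and 12 (4.56%). Over all oligos of the pool, 10.3% lay wholly above in soma and 9.52% in neurites, and 4.1% and 5.03% wholly below. Scaling by the upper quartile in place of TMM moved the oligos outside the block: it gave 90 intact oligos higher and 8 lower in soma, and 92 higher and 70 lower in neurites, so no direction is given for small changes outside the block. The share over all oligos is not given for this scaling, so these counts are not read as a trait of the tile.

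Mutating the motifs removed nearly the whole response. Of 174 pairs, the intact oligo had the larger LR change in 80 (oligos 2 to 80 and 85) and the smaller one in 1 (limma, FDR 0.01), where 7.54% of the 4552 pairs of the pool were higher and 0.0439% lower. In soma 92 pairs differed (1 to 89 and 91 to 93), all with the intact oligo higher, where 12.5% of all pairs were higher and 0.022% lower. In neurites 95 pairs did, oligos 1 to 94 and 245, where 14.5% were higher and 0.22% lower. The median difference between the intact oligo and its companion over oligos 1–44 was 2.16 in soma, 3.85 in neurites and 1.61 in LR change on the log2 scale. The pair with the smaller LR change was oligo 247, which has 1 motif, at −0.20 (SE 0.05, limma FDR 0.00946), and it was named after its value was seen. A few mutated oligos still changed on their own: 3 rose in soma (38, 39 and 46) and 1 fell (168), and 6 rose in neurites (1, 36, 38, 42, 46 and 53) and 1 fell (166). The largest such rise was 0.33 in soma and 0.34 in neurites. Those that rose were 1.72% of the mutated oligos in soma and 3.45% in neurites, where 7.55% and 8.06% of all oligos rose. The 1 that fell in each compartment was 0.575%, where 0.101% and 0.696% of all oligos fell. The share over the mutated oligos of the pool is not given, so these counts are not read as a trait of the tile.

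In WT cells none of the 437 oligos was enriched in either compartment (edgeR FDR 0.01), where 2.57% of all oligos (2.96% of intact ones) were higher in neurites and 1.48% lower. At an unadjusted p under 0.05, 26 intact and 15 mutated oligos were listed. The lowest LR in WT cells was −0.33 at oligo 20 (edgeR FDR 0.0298), and DESeq2, an FDR of 0.05 and reads in place of UMIs each called 1 intact oligo, lower in neurites. The median LR in WT cells was −0.14 for intact and 0.04 for mutated oligos 1–44. That difference was not tested.

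The endogenous Lrrc47 RNA (ENSMUSG00000029028, chr4:154011731-154021513) moved the same way in both cell lines. In CAD soma it was at 38.3, 37.6 and 40.2 CPM in WT and 115, 118 and 123 CPM in KO cells, 3.07-fold higher (log2 1.62, SE 0.07, edgeR FDR 8.30e-11), where 11.2% of 17343 genes rose. In CAD neurites it was at 26.8, 24.9 and 23.5 CPM in WT and 279, 319 and 305 CPM in KO cells, 12-fold higher (log2 3.59, SE 0.07, edgeR FDR 9.84e-15), where 11.8% of genes rose. The groups did not overlap, and its LR went from −0.63 to 1.34, a change of 1.97 (SE 0.10, edgeR FDR 2.35e-09), where 0.225% of genes had a higher LR.

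In N2A cells the same directions were smaller in size. Soma held 51.8, 52.0 and 54.9 CPM in WT and 92.5, 107 and 118 CPM in KO cells, 2.001-fold higher (log2 1.001, SE 0.09, edgeR FDR 1.12e-06), where 10.9% of 17912 genes rose. Neurites held 35.2, 31.1 and 33.7 CPM in WT and 144, 141 and 141 CPM in KO cells, 4.25-fold higher (log2 2.09, SE 0.09, edgeR FDR 1.59e-09), where 6.48% of genes rose. The groups did not overlap. The LR went from −0.67 to 0.42, a change of 1.09 (SE 0.12, edgeR FDR 0.000497), where 0.0893% of genes had a higher LR. Without replicate 2 of every N2A group the change was 0.995 with an edgeR FDR of 0.457, and without replicate 3 it was 1.13 with an FDR of 0.0131, so the call was lost in both cases. Without replicate 1 it was 1.05 and passed the test. The difference between CAD and N2A cells was not tested.

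Side by side, the gene rose 3.07-fold in CAD soma and 12-fold in CAD neurites, and the median intact reporter of oligos 1–44 rose 4.93-fold and 15.9-fold in cells of the same line. The gene and the reporters were counted in separate experiments. Among the 16 tiled genes, a list that the study chose by how their localization behaved in these cells, most of them for a change, and so no independent evidence, Lrrc47 had the largest rise of all in CAD soma, where 7 of 16 rose and 3 fell and the median was 0.29. It stood 6th in CAD neurites, where 9 rose and 3 fell, and 8th in LR change, where 10 rose and 2 fell and the median was 1.91. In N2A cells it stood 2nd in soma (6 rose, 2 fell), 4th in neurites (10 rose, none fell) and 6th in LR change (9 rose, 1 fell). Over all genes tested, the median change was −0.02 to 0.00 in each of these 6 comparisons.

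Between cells whose TDP-43 came mostly from a transgene with Q331K, an ALS-linked variant, and cells with the WT transgene, Lrrc47 did not pass the test. In soma it was at 26.7, 32.4 and 28.4 CPM with Q331K and 32.9, 30.8 and 39.4 CPM with the WT transgene (log2 −0.23, SE 0.12, edgeR FDR 0.706). In neurites it was at 21.1, 21.1 and 17.01 CPM and 24.2, 23.1 and 28.4 CPM (log2 −0.35, SE 0.13, unadjusted p 0.0126, edgeR FDR 0.376). The groups overlapped in soma and not in neurites, and 0.0% of the 13940 genes were called higher in any of these comparisons. The share called lower is not given. Neither arm of this experiment lacks TDP-43.

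The GU block lies inside an annotated intron of the short isoforms Lrrc47-203 (between exons that end at 154019885 and start at 154020437) and Lrrc47-204, which therefore lack it. Lrrc47-201 and Lrrc47-205, which keep the block, held at least 97.9% of the estimated counts of the gene in every library. In CAD neurites, Lrrc47-203 had 8.5, 9.2 and 4.2 estimated counts in KO libraries and 0 in each WT library, against totals of 6830, 8019 and 7395 and of 607, 563 and 640. In CAD soma it had 8.3, 7.1 and 10.5 in KO libraries and 1.3, 0 and 0 in WT libraries, against totals of 3619, 4236 and 4568 and of 1454, 1375 and 1420. As a share of the total, the KO libraries lay above the WT libraries in both compartments of CAD cells and overlapped with them in both of N2A cells. In N2A neurites Lrrc47-203 had 3.2, 6.0 and 2.8 estimated counts in KO and 4.9, 3.4 and 1.2 in WT libraries. The totals there were 3216, 3896 and 3687 in KO and 839, 871 and 923.5 in WT libraries, so the highest shares were in WT libraries. These shares rest on few counts, and splicing was not tested.

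Purified TDP-43 bound the GU block at 500 nM. Binding is given as R, the share of reads an oligo took in a bound library over its share in the input, and tests compare the bound libraries with the 1 input library. At 500 nM 59 intact oligos (22.4%) were above the input, all between oligos 1 and 95, and 29 were below it, all from oligo 160 on (edgeR FDR 0.01). Of the 11025 oligos tested 6.78% were above and 14.5% below, and of the intact ones 8.85% were above. With TMM scaling in place of library totals the split was 93 above and 7 below, where 13.7% and 9.98% of all oligos were, so a position below the input depends on the scaling. With the replicate number as a block the split was 33 above and 7 below, and the share over all oligos is not given for that fit. None of the 174 mutated oligos was above and 23 were below. Oligo 1 had an R of 7.63 and 5.34 at 500 nM, and its mutated companion 1.15 and 0.819. Oligo 89, with 7 motifs and no change in localization, had an R of 5.85 and 4.88 (log2 2.43, SE 0.33, edgeR FDR 0.00110). The last oligo had 0.863 and 0.888.

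The pair of oligo 43 had the largest difference at 500 nM. The intact oligo had an R of 6.03 and 4.72, and the mutated one 0.219 and 0.156, so both forms did not overlap and differed by 4.85 on the log2 scale (SE 0.33, limma FDR 0.00376). In all, 26 of 174 pairs differed, each with the intact oligo higher and each between oligos 9 and 89, where 1.12% of 4113 pairs were higher and 0.0243% lower. At an unadjusted p under 0.05, 103 pairs were listed. The median difference over oligos 1–44 was 3.18. The number called depends on few libraries: leaving out either library at 500 nM, or fitting a replicate block, left 0 pairs, and leaving out any other library left 32 to 34.

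Binding at 500 nM differed less between motif classes inside the block than the levels in cells did. Oligos with 2 to 7 motifs had a median log2 R against the input of 1.81, those with 8 to 12 had 2.13, those with 13 to 16 had 2.40, those with 17 to 20 had 2.50 and those with 21 to 26 had 2.47. Over the first 88 oligos, log2 R at 500 nM had a Spearman correlation of 0.28 with motif number, 0.13 with the LR change and 0.16 with the soma change, where motif number had 0.61 with the LR change and 0.78 with the soma change. Over the whole tile the correlations of R were 0.82, 0.70 and 0.61. These are descriptions over overlapping oligos. Precision is a limit here: 24 of the 44 intact oligos 1–44 and 23 of 45–88 had fewer than 100 input reads, with a lowest count of 18, whereas no oligo outside the block and no mutated oligo did. Oligo 17, the highest at 500 nM (log2 3.10), did not pass the test for its SE of 0.98 (edgeR FDR 0.0262).

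At 50 nM the picture differed, since mutated oligos were enriched too. Above the input were 19 intact oligos (7.22%; 1 to 5, 7 to 11, 26, 154, 155 and 179 to 184) and 61 of 174 mutated ones (35.1%), where 5.39% of all oligos and 4.87% of intact ones were. Below it were 20 intact oligos (7.60%), 16 of them in the third stretch, and no mutated one, where 10.3% of all oligos were. With the replicate number as a block 11 were above and 9 below, again without a share over all oligos. With TMM scaling 57 intact oligos were above and 19 below, where 12.5% and 6.57% of all oligos were. Over oligos 1–44 the median R at 50 nM was 2.78 and 3.34 for intact and 2.65 and 2.42 for mutated oligos. Input reads had a median of 97.5 for these intact oligos and 860.5 for their companions. Counts of calls are therefore not compared between the forms. All 60 intact oligos with 21 to 26 motifs had a log2 R of 0.65 or more, and 5 were called. Oligo 5 was highest, with an R of 9.25 and 12.7 at 50 nM against 7.77 and 5.07 at 500 nM (log2 3.46 at 50 nM, SE 0.41, edgeR FDR 0.00267). The mutated oligo 20, from which all motifs were removed, had an R of 5.18 and 4.76 at 50 nM and of 0.871 and 0.612 at 500 nM. The intact oligo 20 had 2.52 and 3.06 at 50 nM and 5.91 and 4.05 at 500 nM. The order of its forms was thus opposite at the 2 concentrations, but the difference at 50 nM did not pass the test (log2 −0.84, limma FDR 0.29). The pair of oligo 26 had the highest difference at 50 nM, 1.35, and the median over pairs with 21 to 26 motifs was 0.02. At 0 nM, with no TDP-43, the intact oligo 20 had an R of 0.160 and the mutated one 1.80. No pair differed at 50 nM (limma, 0.0% of 4113 pairs; 22 of 174 at an unadjusted p under 0.05).

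Oligos 179 to 184 and their mutated companions rose at 50 nM alike and hold a single motif in their intact form. Intact oligo 182 (chr4:154020863-154021122) had an R of 1.95 at 0 nM, 2.22 and 2.97 at 5 nM, 3.46 and 2.90 at 50 nM and 0.962 and 0.880 at 500 nM. Its companion had 1.95 at 0 nM, 3.97 and 3.12 at 50 nM and 1.17 and 1.003 at 500 nM. Levels at 50 nM thus stood above those at 500 nM with and without the motif.

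The lowest values at 50 nM were in the third stretch, with a median log2 R of −2.31 for the intact form. Oligo 123 had an R of 0.0164 and 0.0265 at 50 nM, from 3 and 10 reads, and 0.105 at 0 nM, in the library without TDP-43. Over that stretch the median R was already 0.442 at 0 nM, and with the 0 nM library in place of the input none of its 44 oligos was below at any concentration. With that library as the baseline, 2 intact oligos were above at 50 nM and 0 below, where 1.90% and 0.281% of all oligos were, and 49 were above and 61 below at 500 nM, where 8.93% and 15.5% were. GC content moved with these values: its Spearman correlation with log2 R over all intact oligos was 0.61 at 50 nM and 0.03 at 500 nM, and over the first 88 it was 0.86 at 50 nM. The part of base composition in the 50 nM values was not tested.

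At 5 nM no Lrrc47 oligo and no oligo of the pool passed the test (edgeR, 0.0% of 11025), with 48 intact and 34 mutated oligos at an unadjusted p under 0.05. DESeq2 placed 4 intact oligos below the input and TMM scaling 1. The median log2 R was 0.67 for intact oligos 1–44 and 0.52 for their companions, and 18 of the 48 lay in the third stretch, each below the input. Without the share of all oligos at that cut-off, this is a description only. For oligo 1 the R at 5 nM was 1.77 and 1.75, against 1.86 at 0 nM.

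SLAM-seq followed how fast the label was lost from the same reporters. Of the Lrrc47 oligos, 243 intact and 154 of 174 mutated ones had enough T positions in every library to be tested, and the 20 untested intact oligos were 171 to 180 and 249 to 258. One library stood apart: the median T-to-C rate over all tested oligos was 1.37% in replicate 1 of KO at 12 h and 0.433% and 0.483% in the other two. WT cells had 1.16%, 1.16% and 1.32% at 12 h, and the libraries without 4-thiouridine had 0.166% to 0.247%. Results on KO at 12 h are therefore given with and without that library.

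Within each library, the intact and mutated forms of the GU block can be set beside each other. In WT cells the median share of the 0 h rate left at 12 h was 53.5%, 51.6% and 61.1% for intact oligos 1–44 in the 3 libraries, and 70.9%, 70.9% and 78.6% for their mutated companions. In KO cells it was 78.8%, 33.8% and 37.3% for the intact and 80.5%, 36.9% and 38.8% for the mutated oligos. The intact form thus kept less label than the mutated form in each WT library by a wider margin than in any KO library, replicate 1 included. Oligos 45–88 gave 50.5%, 50.7% and 60.1% for intact and 66.7%, 64.3% and 76.1% for mutated oligos in WT cells, and 78.7%, 29.9% and 32.7% against 77.6%, 29.8% and 31.8% in KO cells.

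Some of the T-to-C signal was there without label. Once each oligo's mean rate in the unlabelled libraries was subtracted, a step chosen after seeing the data, intact oligos 1–44 kept 45.1%, 41.8% and 53.9% in WT and 75.2%, 22.0% and 26.6% in KO cells. Their companions kept 66.9%, 66.8% and 75.8% in WT and 77.7%, 28.6% and 31.1% in KO cells. The median oligo of the pool kept 54.2%, 54.4% and 63.5% in WT and 70.2%, 13.7% and 16.7% in KO cells. The intact block oligos were below the pool's median in each WT library and above it in each KO library. Their companions were above it in every WT and every KO library. These shares are descriptions over overlapping oligos, and the pair test below is the test of the difference.

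The test of that difference passed for no single pair. Label kept is the change from 0 to 12 h in the log2 odds of reading a T as C, KO minus WT, and it differed between intact and mutated oligo in 0 of 154 pairs (limma, FDR 0.05), where 0.0% of the 3865 pairs of the pool did, with 26 pairs at an unadjusted p under 0.05. The median difference was 0.24 over oligos 1–44, 0.33 over 45–88, 0.10 over the third stretch and −0.08 to 0.00 in the later ones. Oligo 40 had the largest value, 1.05 (SE 0.24, limma FDR 0.618). Without replicate 1 of KO at 12 h, 3 pairs of the stretch 45–88 passed. The share over all pairs is not given for that setting, so this count is not read as a trait of the stretch.

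Without reference to the companions, intact oligos lost label in KO cells in 243 of 243 cases (edgeR, FDR 0.05), which is near the 97.2% of all 10576 oligos that did, and in WT cells in none, where 0.00946% of all oligos did. At an unadjusted p under 0.05, 45 intact oligos were listed in WT cells. The spread of the fit decides these counts: without replicate 1 of KO at 12 h, 243 of 243 lost label in WT cells too, where 97.0% of all oligos did. The difference in label kept between KO and WT cells passed for 0 of 243 with every library (3 at an unadjusted p under 0.05) and for 240 of 243, all lower in KO cells, without replicate 1, where 96.3% of all oligos were lower and 0.0473% higher. At 0 h KO and WT differed for no intact oligo, with a median of −0.03 and none at an unadjusted p under 0.05.

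Relative to the pool, the intact block kept more label in KO than in WT cells, by a test that left a library out. With each library centred on its median oligo (limma) and replicate 1 of KO at 12 h left out, a setting added after the data were seen, 67 of 243 intact oligos kept more label in KO than in WT cells, where 10.1% of all oligos did, and 8 kept less, where 5.69% did. Of these, 31 were among oligos 1–44 and 28 among 45–88, with median changes of 0.68 and 0.57, and the other 4 stretches had medians of −0.14 to 0.01. Mutated oligos passed this test as well, 15 in the stretch 1–44 and 9 in 45–88, with medians of 0.36 and 0.24. With all libraries kept, the centred test passed for 0 of 243. Over the 243 oligos the motif number and this change had a Spearman correlation of 0.76, again a description over overlapping oligos.

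Oligo 43, the one with the largest difference in binding between its forms, and oligo 105, the one with the largest loss of label in KO cells, are given in full. Intact oligo 43 had a T-to-C rate of 1.57% and 1.48% in WT cells at 0 h and 0.771%, 0.757% and 0.884% at 12 h. In KO cells it had 1.57%, 1.59% and 1.64% at 0 h and 1.26%, 0.549% and 0.607% at 12 h. Relative to the median oligo of its library it stood at 0.664, 0.653 and 0.668 in WT and at 0.919, 1.27 and 1.26 in KO cells at 12 h, which do not overlap. Intact oligo 105, which has no motif, had 0.680%, 0.782% and 1.002% in WT and 0.854%, 0.157% and 0.113% in KO cells at 12 h. Its last 2 values were as low as its rates without 4-thiouridine, 0.150%, 0.178% and 0.169%, so loss beyond that point could not be seen. Mutated oligo 43 stood at 0.975, 0.998 and 1.06 in WT and at 0.947, 1.55 and 1.40 in KO cells relative to the library median.

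Beside each other, the calls of 3 measures lay in the same 5′ stretch of the UTR. The last oligo called was 81 for the LR change, 93 for soma apart from oligo 127, and 95 for binding at 500 nM. These are the places where the threshold was missed, and the borders were not compared by a test. Of the 81 oligos with a higher LR, 49 were above the input at 500 nM, 60.5% of the former and 83.1% of the 59 bound ones. Of the 93 oligos higher in soma, 57 were bound, 61.3% of the former and 96.6% of the bound.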

How the data were processed

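The authors deposited UMI counts and read counts per oligo (MPRA), read counts per oligo (RBNS), counts of T read as T and of T read as C per oligo (SLAM-seq), and estimated counts and TPM per transcript (RNA-seq, not whole numbers). Estimated counts were summed to genes and rounded before testing, and TPM served only for the markers. Counts without a gene were at most 0.129% of a library and left out. All tests ran over the whole table in R 4.3.3: edgeR 4.0.16 quasi-likelihood tests with the 4 MPRA groups, the 8 RBNS libraries, the 11 labelled SLAM-seq libraries or the 12 libraries of a cell line in 1 fit, and limma 3.58.1 on the log2 difference between an intact oligo and its companion in each library. Calls used Benjamini-Hochberg FDR 0.01 (SLAM-seq 0.05). SLAM-seq tests modelled T read as C against T read as T with a coverage term per library. MPRA and RNA-seq were scaled by TMM, RBNS by library totals as in the study's own measure; low counts were filtered with filterByExpr, and SLAM-seq required 1000 T positions in each library. A pseudocount of 0.5 was added for R, T-to-C rates and log2 odds, so fold changes on these scales understate those of low oligos. UMIs are 8 nt, which allows 65536 per oligo and library, so high oligos can share UMIs by chance, and an alternative corrects for this. DESeq2 1.42.0 was another alternative. The steps were tested on simulated data, in which the SLAM-seq test of label kept called no planted change once each library had its own rate and the RBNS test called few, so low counts there do not show that nothing changed. Replicate numbers were checked for pairing: the correlation of same-numbered libraries exceeded 0.1 in 6 of 24 pairs in the MPRA, 2 of 6 in RBNS, 0 of 15 in SLAM-seq, 13 of 18 in CAD, 11 of 18 in N2A and 7 of 18 in Q331K cells. All 3 pairs of KO and WT exceeded it in CAD soma (0.577, 0.149 and 0.345), N2A soma (0.609, 0.237 and 0.426) and N2A neurites (0.264, 0.25 and 0.12), so there the numbers pair libraries by this measure. For replicate 2 in both soma comparisons, however, the own number was not the best match. WT soma and WT neurites of CAD cells exceeded it too (0.242, 0.212 and 0.307). RBNS used a pair of protein batches, which no source ties to the numbers. With 2 libraries per concentration, both numbers give the same correlation, so each RBNS value above is counted under both. The fits reported have no block, which is an alternative. No 2 libraries agreed within sampling noise (lowest chi-square per degree of freedom 1.58). Named oligos are those that open each stretch, the last one, the highest and lowest of each test, and their companions, with others named as borders. The members, motifs and gene lists were chosen with earlier results of these data known. Genome positions come from matching oligo 1 to a GENCODE transcript on GRCm38, and sequences from the study's oligo list. Human motor neuron libraries were not analysed here.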

Additional observations from a re-analysis of the deposited data

Results flagged for a closer look

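In 124 groups of 4 MPRA libraries tested for a library far from the other 3, 4 had one, and chance gives about 1 in 20. Intact oligo 151 had 33.87 CPM in replicate 4 of WT neurites against 28.1 to 28.6 CPM in the others. The mutated oligo at chr4:154020833-154021092, which opens the fifth stretch, had 54.06 CPM in replicate 1 of KO soma against 51.2 to 51.4 CPM, and 49.5 CPM in replicate 2 of KO neurites against 51.9 to 52.1 CPM. Mutated oligo 238 had 47.51 CPM in replicate 1 of KO neurites against 52.2 to 52.9 CPM. None of these oligos lies in the GU block, and none was called in any MPRA comparison.

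The change from WT to KO cells differed between neurites and soma, by the interaction test, for 81 intact oligos. The LR change differed between the intact and the mutated form for 81 pairs, 80 with the larger and 1 with the smaller LR change in the intact oligo. For the endogenous gene the difference between neurites and soma was 1.971 in CAD cells and 1.0877 in N2A cells on the log2 scale.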

How the results depend on the processing

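Over 300 values of the main comparisons recomputed under other settings, 265 kept their direction and their side of the threshold or stayed within 1.5 times the count. The counts below are of intact oligos or pairs called, and the cause of each move was not tested. Shares over all oligos are given for only some of these settings. In the MPRA, leaving out 1 replicate gave 79 to 81 oligos for the LR change, 90 to 94 for soma, 93 to 95 for neurites and, for pairs, 78 to 80, 90 to 92 and 91 to 93. Upper-quartile scaling gave 162 oligos in neurites (92 higher, 70 lower). For the LR in WT cells, 0 became 1 with FDR 0.05, with DESeq2 and with reads in place of UMIs, and 0 to 2 with a replicate left out (2 without replicate 3). RBNS at 5 nM gave 4 with DESeq2, 1 with TMM and 0 to 5 with a library left out, 5 of them without either library at 500 nM. At 50 nM, 39 became 105 with FDR 0.05, 74 with DESeq2, 76 with TMM (57 above, 19 below), 2 against the 0 nM library, 20 with a replicate block, and 0 to 68 with a library left out: 12 without replicate 1 and 0 without replicate 2 at 50 nM, and 67 and 68 without replicates 1 and 2 at 500 nM. At 500 nM, 88 became 155 with FDR 0.05, 138 with DESeq2, 100 with TMM (93 above, 7 below), 40 with a replicate block, and 64 to 102 with a library left out. The 26 pairs at 500 nM became 85 with FDR 0.05, 50 against the 0 nM library, 40 with at least 100 input reads, 0 with a replicate block, and 0 to 34 with a library left out, 0 without either library at 500 nM. Pairs at 5 and 50 nM stayed at 0 with each library left out.

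In SLAM-seq, leaving out 1 library gave 0 to 243 for label loss in WT, 196 to 243 for label loss in KO, 0 to 240 for label kept and 0 to 3 for its pairs, with 243, 243, 240 and 3 without replicate 1 of KO at 12 h, and 0 at 0 h. Label loss in KO became 0 on centred values and 113 (75 higher, 38 lower) on centred values without that replicate, and label kept became 75. Centring turns the sign of single values, which are then relative to the median oligo. Label loss in KO became 0.44 and 0.56 (centred, and centred without that replicate) for intact oligo 45, 0.0605 and 0.11 for intact 89, 0.19 and 0.31 for the last intact oligo, 0.63 and 0.84 for intact 49, 0.20 and 0.31 for mutated 1 and 0.62 and 0.79 for mutated 45. Without that replicate it became 0.0020 for the last mutated oligo and 0.98 for mutated 49, and label kept became 0.61 for intact 45, 0.51 for mutated 45 and 0.64 for mutated 57.

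For endogenous Lrrc47, leaving out 1 replicate gave 1.59 to 1.64 in CAD soma, 3.53 to 3.69 in CAD neurites, 1.91 to 2.06 for the CAD LR change, 1.004 to 1.08 in N2A soma, 2.07 to 2.13 in N2A neurites and 0.995 to 1.13 for the N2A LR change, which passed no longer without replicate 2 (FDR 0.457) or 3 (FDR 0.0131). With Q331K the ranges were −0.39 to −0.09 in soma, −0.47 to −0.17 in neurites and −0.22 to −0.07 for LR. A replicate block gave 81 oligos for the MPRA LR change. For the gene, where the numbers paired KO with WT libraries, it gave 1.62 in CAD soma, 0.999 in N2A soma and 2.09 in N2A neurites. Apart from RBNS at 50 and 500 nM and the pairs at 500 nM, the block changed no call of a main comparison.

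RBNS is limited by its single input library and by fewer than 100 input reads for 24 and 23 of 44 intact oligos in the first 2 stretches. SLAM-seq is limited by the KO library at 12 h that stood apart and by unlabelled rates of 0.166% to 0.247%. Estimates along the tile rest on overlapping oligos, so a run of calls is fewer observations than its length.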
